A study of Homo sapiens with 4 samples.

Results

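The expression of 50 genes of the lysosome, its proton pump and the autophagy pathway was examined in BLaER1 cells after knockdown of the long non-coding RNA HAL7. The genes were taken by name: 17 lysosomal hydrolases and membrane proteins, 15 subunits and accessory proteins of the V-ATPase, 15 genes of the autophagy machinery and the 3 transcription factor genes TFEB, TFE3 and MITF. All 50 matched an Ensembl ID among the 43450 in the expression table, and 49 had the mean of at least 1 FPKM (sequenced fragments, scaled to transcript length and library size) needed for testing. BLaER1 is a human B cell leukaemia line with an inducible C/EBPα transgene, used as a model of conversion to macrophage-like cells. Both groups were BLaER1 cells in RPMI medium with serum: 2 libraries labelled control and 2 labelled HAL7 knockdown, replicates 0 and 1 in each. The knockdown used LNA GapmeRs, antisense oligonucleotides that direct RNase H to the bound RNA, given through the medium without a transfection reagent. What the control cells received, how long treatment lasted and whether replicates were separate cultures are not stated in the sources used here. The p-values therefore cover no more than library-to-library spread, which may be technical.

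Lysosomes break down macromolecules with acid hydrolases that reach them largely by the mannose 6-phosphate route, inside a membrane coated with heavily glycosylated proteins such as LAMP1 and LAMP2. The V-ATPase acidifies them: its V1 sector hydrolyses ATP in the cytosol and turns a rotor that drives protons through the membrane-bound V0 sector. Autophagy delivers cytoplasm to lysosomes in vesicles made by the ULK1 kinase complex, the BECN1 lipid kinase complex and 2 conjugation systems that attach ATG12 to ATG5 and lipid to the LC3 and GABARAP proteins. TFEB, TFE3 and MITF bind E-box elements in promoters of many of these genes and are held in the cytosol when mTORC1 is active on the lysosome. Oligonucleotides taken up without transfection enter cells by endocytosis and pass through late endosomes and lysosomes.

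HAL7 was measured at 0.726 FPKM in control replicate 0, 0.613 FPKM in control replicate 1, 0.475 FPKM in knockdown replicate 0 and 0.347 FPKM in knockdown replicate 1. Pairs of values keep this order of replicates. Both knockdown libraries lay below both control libraries, but the log2 change of -0.24 ± 0.11 (SE) on the log2(FPKM + 1) scale did not pass, with an adjusted p in limma of 0.32. These values correspond to about 24.1 to 56.6 fragments per library, and as HAL7 is annotated as an antisense RNA and strand-specific counting is not stated, reads from the opposite strand cannot be told apart. Depth recovered from the steps between low values was 60.3 M fragments in control replicate 0 and 95.6 to 127 M in the other libraries, if the authors' scaling left totals unchanged. Markers of the line's B lineage were present, with 11 of 11 matched genes at 1 FPKM or more and a summed level of 4083 to 4090 FPKM in control and 3971 to 4022 FPKM in knockdown libraries. Of 10 matched monocyte and macrophage markers only CSF1R reached 1 FPKM, the list summed to 35.9 to 37.2 FPKM in control and 34.6 to 38.6 FPKM in knockdown libraries, S100A8 and S100A9 were listed at 0 in all libraries and CD14 was at most 0.186 FPKM. Of 8 T and NK cell markers only NKG7 reached 1 FPKM, and the list summed to 27.3 to 27.7 FPKM in control and 17.3 to 22.1 FPKM in knockdown libraries, with CD3D and CD3G listed at 0. The part of these markers in the results was not tested.

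The lysosomal, V-ATPase and autophagy genes differed little between knockdown and control. None of the 49 tested genes passed an adjusted p in limma of 0.05, against 4 of 12935 genes overall (0.0309%, of which 0.0232% lower and 0.00773% higher), and the smallest adjusted p among them was 0.20, for ULK1. Ratios of mean FPKM, knockdown to control, ran from 0.851 for WIPI1 to 1.13 for ATG12. At an unadjusted limma p under 0.05, 5 of the 49 were lower (10.2%) and 2 were higher (4.08%). Over all tested genes the shares were 9.35% lower and 7.25% higher, so the count of lower genes was near the background. The 5 lower genes were ULK1, CLN3, CD63, NEU1 and SCARB2, and the 2 higher genes were ATG12 and ATP6V1G1. Log2 changes were negative in 32 of 49 genes (65.3%) with a median of -0.05, against 53.2% and a median of -0.01 over all tested genes. The knockdown libraries lay entirely below the control libraries in 19 of 49 genes (38.8%) and entirely above in 5 (10.2%), where the shares over all tested genes were 27.7% and 22.5%, or 50.3% in either direction. With 2 libraries against 2, an exact permutation test of a single gene cannot give a two-sided p below 0.333. Data of this design were simulated with independent noise whose spread depended only on level. There limma recovered 17.5% of log2 changes of 0.2 and 100% of changes of 0.5 at an adjusted p of 0.05. These shares can be too high for the real libraries, where IFI30, a gene outside the 49, had a log2 change of -0.47 and an adjusted p in limma of 0.13. Most changes as small as 0.2 would therefore be missed, and larger ones can be missed too.

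**Figure D1:**
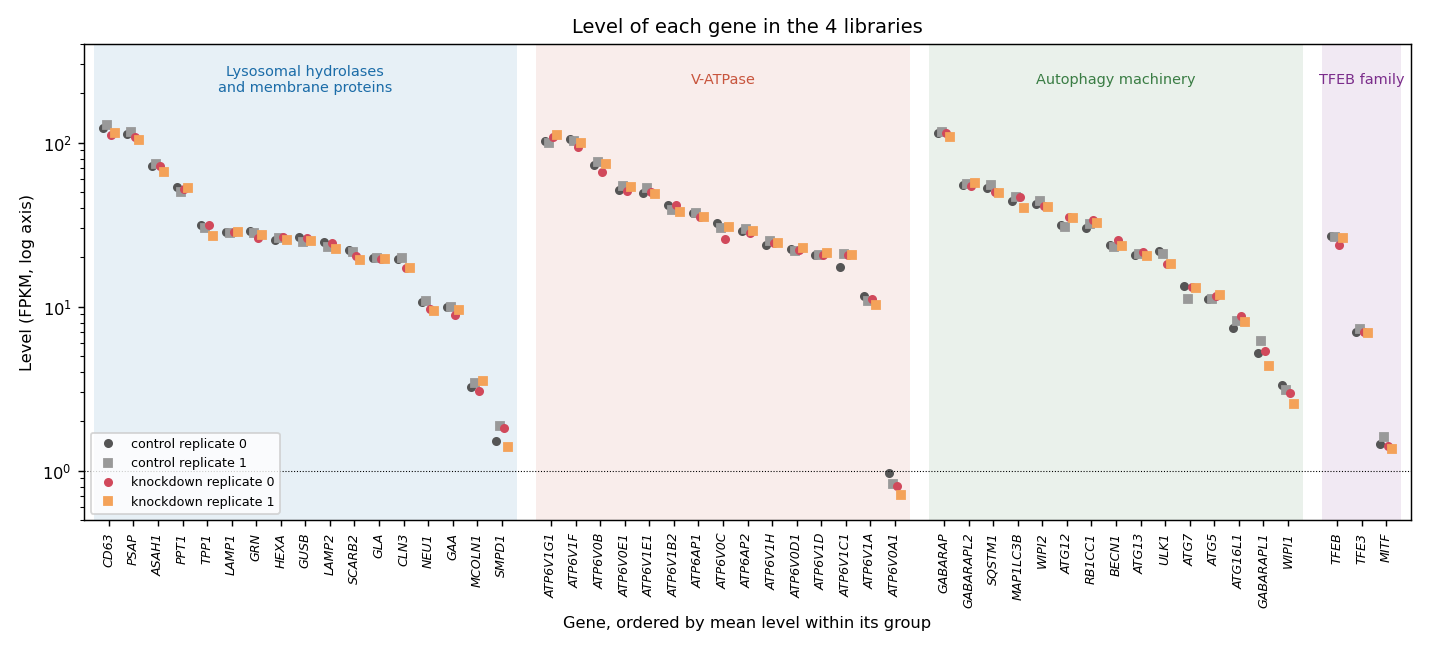
Level of each of the 50 genes in FPKM (y axis, log scale), ordered within its group by mean level; circles are replicate 0 and squares replicate 1, grey for control and coloured for knockdown. The 4 libraries lie close together for nearly every gene, CD63, GABARAP, PSAP, ATP6V1G1 and ATP6V1F lead, and ATP6V0A1 lies below the dotted line at 1 FPKM.

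Most lysosomal hydrolases and membrane proteins had negative log2 changes, but only 9 of 17 did with the GC trend described further on removed. With no such removal 13 of the 17 were negative, against 53.2% of all tested genes. Their median was -0.08, their range -0.19 to 0.02, and 4 had an unadjusted limma p under 0.05, all lower (23.5%, against 9.35% over all tested genes). None passed after adjustment over all genes, where the smallest limma adjusted p was 0.21. Their levels spanned 1.65 FPKM for SMPD1 to 120 FPKM for CD63 as means of the 4 libraries.

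CD63, a tetraspanin of late endosomes, lysosomes and secreted vesicles, was the most abundant, at 124 and 129 FPKM in control and 111 and 115 FPKM in knockdown libraries. Both knockdown libraries lay below both controls. The ratio was 0.894 and the log2 change -0.16 ± 0.05 (SE), with an adjusted p in limma of 0.23. PSAP, the precursor of the saposins that help hydrolases reach sphingolipids, stood at 114 and 117 FPKM in control and 109 and 103 FPKM in knockdown libraries. These groups did not overlap either, with a ratio of 0.921 and an adjusted p in limma of 0.33.

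CLN3, a membrane protein gene mutated in juvenile Batten disease, stood at 19.7 FPKM in both control libraries and 17.2 FPKM in both knockdown libraries. The replicates were closer to each other than the groups. The ratio was 0.873 and the log2 change -0.19 ± 0.05 (SE), with an adjusted p in limma of 0.21. NEU1, the sialidase that trims sialic acid from glycoproteins, stood at 10.7 and 10.9 FPKM in control and 9.71 and 9.37 FPKM in knockdown libraries, a ratio of 0.881 and an adjusted p in limma of 0.25. SCARB2, the membrane receptor that carries glucocerebrosidase to lysosomes, stood at 22.2 and 21.6 FPKM in control and 20.4 and 19.2 FPKM in knockdown libraries, a ratio of 0.903 and an adjusted p in limma of 0.30. In NEU1 and SCARB2 both knockdown libraries were again lower than both controls. On GRCh38, in GENCODE 29, CLN3 (ENSG00000188603.11) spans 28474111 to 28495575 on chromosome 16, CD63 (ENSG00000135404.6) spans 55725323 to 55729707 on chromosome 12 and NEU1 (ENSG00000204386.5) spans 31857659 to 31862906 on chromosome 6.

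The other lysosomal genes had ratios between 0.933 and 1.01. LAMP1, a main protein of the lysosome membrane, stood at 28.5 and 28.1 FPKM in control and 28.4 and 28.6 FPKM in knockdown libraries, and the 95% interval of its log2 change ran from -0.11 to 0.13. LAMP2, the related membrane protein needed for fusion with autophagosomes, had overlapping groups and a ratio of 0.977. The hydrolases HEXA (β-hexosaminidase α chain), GUSB (β-glucuronidase), GLA (α-galactosidase) and PPT1 (palmitoyl-protein thioesterase) had ratios of 1.01, 1.01, 0.992 and 1.01. TPP1, a peptidase, and ASAH1, the acid ceramidase, had ratios of 0.950 and 0.948. ASAH1 stood at 72.5 and 74.0 FPKM in control and 72.4 and 66.5 FPKM in knockdown libraries. In GRN and GAA and, by small margins, in ASAH1 and GLA, both knockdown libraries lay below both controls. In the whole group this held for 9 of 17 genes (52.9%, against 27.7% of all tested genes), and 0 lay entirely above (against 22.5%). GRN, which encodes progranulin, had 28.9 and 28.0 FPKM in control and 26.2 and 27.5 FPKM in knockdown libraries, a ratio of 0.943 and an adjusted p in limma of 0.49. GAA, the acid α-glucosidase, had a ratio of 0.933. The lowest levels were those of SMPD1, the acid sphingomyelinase, at 1.52 and 1.87 FPKM in control and 1.82 and 1.39 FPKM in knockdown libraries, and MCOLN1, a lysosomal cation channel, with means of 3.33 ± 0.133 and 3.29 ± 0.308 FPKM (SD, n = 2 each).

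Several of these genes carry, near their start site, the E-box that TFEB and its relatives bind, which makes their promoters the place to see whether genes with the element moved together. RefSeq windows on GRCh38.p14, from 250 bases before to 50 bases after a start, matched 40 of the 50 genes. The genes without a window were ASAH1, ATP6V0E1, ATP6V1A, ATP6V1B2, ATP6V1C1, ATP6V1H, HEXA, LAMP2, PSAP and RB1CC1. Both strands were searched for CACGTG, for TCACGTGA and for the longer form with G before and C after TCACGTGA; all 3 are palindromes, and each longer one holds the shorter. CACGTG was found in 7.26% of all 35116 windows, TCACGTGA in 0.98% and the longest form in 0.353%. By gene, CACGTG was found in at least 1 window of 8.77% of all 27305 genes and of 9 of the 40 genes here: 6 of 13 lysosomal genes, 3 of 10 V-ATPase genes, 0 of 14 autophagy genes and 0 of 3 in the TFEB family. For the 8 genes other than LAMP1, elements are shown here in 30-base windows, both copies in GAA and 1 in each other gene, of which ATP6V0B, MCOLN1 and CLN3 hold a further copy that is not shown. They are read 5′ to 3′ on the gene's strand, with the longest of the 3 palindromes in capitals. That of CLN3 crosses the start in 1 of its windows.
GAA, chr17:80101493-80101522, plus strand: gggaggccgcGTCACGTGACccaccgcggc
GAA, chr17:80101538-80101567, plus strand: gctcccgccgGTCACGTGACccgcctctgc
MCOLN1, chr19:7522598-7522627, plus strand: gggctaccggGTCACGTGACcgaggcacag
ATP6V1G1, chr9:114587699-114587728, plus strand: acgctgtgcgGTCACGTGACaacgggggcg
ATP6V0D1, chr16:67481199-67481228, minus strand: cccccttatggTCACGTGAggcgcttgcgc
NEU1, chr6:31862930-31862959, minus strand: atgctgcgtgatCACGTGggaggagatgag
CD63, chr12:55729172-55729201, minus strand: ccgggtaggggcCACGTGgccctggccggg
CLN3, chr16:28492058-28492087, minus strand: cgcgggtgctgTCACGTGAtccgacaaacg
ATP6V0B, chr1:43974891-43974920, plus strand: ccggcgtggggtCACGTGgtaccggcgcat
LAMP1 held 6 copies of CACGTG, more than any other gene here, and its 250 bases before the start are shown with the copies in capitals; the last base is the first of a copy that crosses the start.
LAMP1, chr13:113296989-113297238, plus strand: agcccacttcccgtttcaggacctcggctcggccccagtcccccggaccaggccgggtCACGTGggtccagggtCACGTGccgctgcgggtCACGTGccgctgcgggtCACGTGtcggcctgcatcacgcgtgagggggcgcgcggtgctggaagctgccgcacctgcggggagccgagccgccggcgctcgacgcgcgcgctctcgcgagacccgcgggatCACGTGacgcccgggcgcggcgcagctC

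Genes that carried the element did not share a direction. Of the 9 with CACGTG, 6 had negative and 3 had positive log2 changes, with a median of -0.08, against 20 negative and 10 positive and a median of -0.05 in the 30 tested genes with a window and no match. With the longest form, GAA stood at a ratio of 0.933, MCOLN1 at 0.989 and ATP6V1G1 at 1.09. LAMP1, with the most copies, stood at 1.01 and CLN3 at 0.873. The median transcript GC content was 56.8% in genes with CACGTG and 51.7% in genes without. A match is a description of the letters in the window, and binding was not measured.

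**Figure D2:**
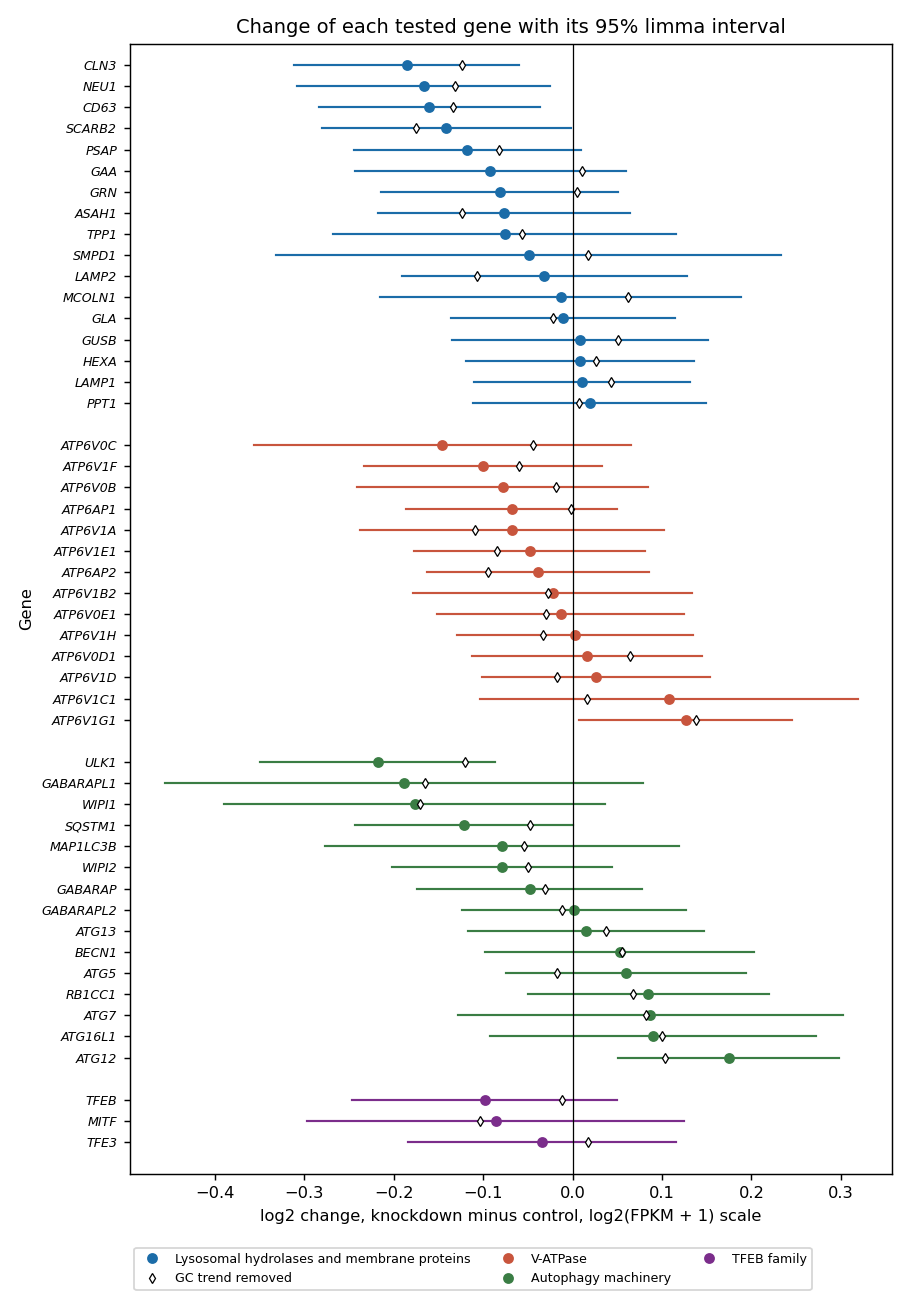
Log2 change of each of the 49 tested genes (x axis, knockdown minus control on the log2(FPKM + 1) scale) with its 95% limma interval, by group; open diamonds give the change after the trend with transcript GC content was removed. Most intervals cross 0, CLN3, CD63 and ULK1 lie farthest on the lower side of it in relation to their intervals, and ATG12 on the higher side.

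V-ATPase genes had small log2 changes, more of them negative. Of 14 tested genes 9 had negative (64.3%, against 53.2% of all tested genes) and 5 positive log2 changes, with a median of -0.03. With the GC trend removed 11 of the 14 were negative (78.6%, against 49.5% of all genes), again with a median of -0.03. At an unadjusted limma p under 0.05, 0 were lower and 1 was higher (7.14%). The shares over all tested genes were 9.35% and 7.25%. After adjustment 0 passed, with a smallest limma adjusted p of 0.28. The V1 subunit genes made up both ends of the range of levels among those tested. ATP6V1G1, a stalk subunit, had 102 and 99.4 FPKM in control and 109 and 112 FPKM in knockdown libraries. Both knockdown libraries were higher than both controls, at a ratio of 1.09 and a log2 change of 0.13 ± 0.05 (SE), with an adjusted p in limma of 0.28. ATP6V1F, a subunit of the central rotor, had 106 and 102 FPKM in control and 93.9 and 99.8 FPKM in knockdown libraries, a ratio of 0.933 on the other side. ATP6V1A, the catalytic subunit, was the least abundant tested gene of the group, at 11.6 and 10.9 FPKM in control and 11.2 and 10.2 FPKM in knockdown libraries. ATP6V1B2, its partner in the catalytic ring, had a ratio of 0.985. The stalk and rotor genes ATP6V1E1 and ATP6V1D and the regulatory subunit gene ATP6V1H had ratios of 0.966, 1.02 and 1.00. ATP6V1C1, which links the stalks to V0, had 17.5 FPKM in control replicate 0, and 21.0, 20.8 and 20.7 FPKM in control replicate 1 and knockdown replicates 0 and 1, so that its positive log2 change of 0.11 came from control replicate 0 and turned to -0.02 without it.

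In the V0 sector, ATP6V0C, the proton-carrying ring subunit, had 32.3 and 30.2 FPKM in control and 25.8 and 30.7 FPKM in knockdown libraries, so knockdown replicate 0 alone was low. ATP6V0B, a related ring subunit, had 72.8 and 75.9 FPKM in control and 66.4 and 74.5 FPKM in knockdown libraries, and again only knockdown replicate 0 lay below both controls. ATP6V0D1, which joins the ring to the rotor, and ATP6V0E1 had ratios of 1.01 and 0.991. The accessory protein genes ATP6AP1 and ATP6AP2, the latter also known as the prorenin receptor, had ratios of 0.953 and 0.972. ATP6AP1 had 37.0 and 37.2 FPKM in control and 35.3 and 35.4 FPKM in knockdown libraries, without overlap, and an adjusted p in limma of 0.52.

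The V-ATPase in these libraries was represented by particular isoforms. ATP6V0A1, an isoform of the large membrane subunit a, was under the filter at 0.966 and 0.830 FPKM in control and 0.813 and 0.713 FPKM in knockdown libraries, about 271 to 491 fragments each. It was not tested; both knockdown libraries lay below both controls. TCIRG1, which encodes the a3 isoform best known from osteoclasts, averaged 61.7 ± 2.06 FPKM in the controls and 50.4 ± 0.675 FPKM after knockdown (SD, n = 2 each). Its ratio was 0.817 and its log2 change -0.29 ± 0.05 (SE), with an unadjusted limma p of 0.0012 and an adjusted p in limma of 0.19. ATP6V0A2, a further isoform named here after its values were seen, had 16.8 ± 0.626 and 16.6 ± 0.946 FPKM. ATP6V1B1 and ATP6V0D2, tissue-restricted isoforms of subunits B and d, were listed at 0 in all 4 libraries. ATP6V1E2, an isoform of subunit E, had 3.85 ± 0.470 and 4.83 ± 0.563 FPKM, a ratio of 1.25 and an adjusted p in limma of 0.28. The isoforms ATP6V1G2 and ATP6V0E2, also chosen after their values were seen, had ratios of 0.906 and 0.942.

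Autophagy genes lay on both sides. Of 15 tested genes 7 had negative (46.7%, against 53.2% of all tested genes) and 8 positive log2 changes, with a median of 0.00. With the GC trend removed 9 of the 15 were negative (60%, against 49.5% of all genes). At an unadjusted limma p under 0.05, 1 was lower and 1 was higher (6.67% each, against 9.35% and 7.25% over all tested genes). In the initiation complex, ULK1, the kinase that starts autophagosome formation, had 21.9 and 21.0 FPKM in control and 18.3 FPKM in both knockdown libraries. Knockdown libraries were lower without overlap, at a ratio of 0.853 and a log2 change of -0.22 ± 0.05 (SE), with an unadjusted limma p of 0.0062 and an adjusted p in limma of 0.20. Its partners in the complex, ATG13 and RB1CC1 (FIP200), had ratios of 1.01 and 1.06. ULK2, the related kinase, named after its values were seen, had 2.84 ± 0.000311 and 2.70 ± 0.258 FPKM. BECN1, the scaffold of the lipid kinase complex, had 23.8 and 23.2 FPKM in control and 25.6 and 23.4 FPKM in knockdown libraries, with a ratio of 1.04. ULK1 (ENSG00000177169.3) spans 131894651 to 131923167 on chromosome 12 of GRCh38.

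In the conjugation systems, ATG12, the ubiquitin-like protein joined to ATG5, had 31.4 and 30.5 FPKM in control and 35.4 and 34.6 FPKM in knockdown libraries. Both knockdown libraries were higher, at a ratio of 1.13 and a log2 change of 0.17 ± 0.05 (SE), with an unadjusted limma p of 0.013 and an adjusted p in limma of 0.21. ATG5 stood at 11.2 FPKM in both control and 11.7 FPKM in both knockdown libraries, which did not overlap but differed by a ratio of only 1.05. ATG7, the activating enzyme of both systems, and ATG16L1, which binds the ATG12-ATG5 conjugate, had overlapping groups and ratios of 1.06 and 1.07. ATG12 (ENSG00000145782.8) spans 115828200 to 115841858 on chromosome 5 of GRCh38.

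Of the LC3 and GABARAP proteins, which coat the autophagosome membrane and bind cargo receptors, GABARAP was the most abundant, at 114 and 116 FPKM in control and 114 and 108 FPKM in knockdown libraries. GABARAPL2 had 55.1 and 56.0 FPKM in control and 54.2 and 57.0 FPKM in knockdown libraries, and the 95% interval of its log2 change ran from -0.12 to 0.13. MAP1LC3B had 44.4 and 46.9 FPKM in control and 46.7 and 39.8 FPKM in knockdown libraries, so only knockdown replicate 1 was low. GABARAPL1 was the least abundant of these, at 5.23 and 6.14 FPKM in control and 5.40 and 4.35 FPKM in knockdown libraries, with a ratio of 0.858 and an adjusted p in limma of 0.44. In none of these 4 genes were the groups apart. MAP1LC3A, MAP1LC3B2, MAP1LC3C and GABARAPL3 were each under 0.42 FPKM in every library, and as near-identical copies share sequence between MAP1LC3B and MAP1LC3B2 and between GABARAPL1 and GABARAPL3, how reads were divided between them is uncertain.

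SQSTM1, the p62 receptor that carries ubiquitinated cargo and is itself degraded by autophagy, had 53.0 and 55.3 FPKM in control and 49.9 and 49.5 FPKM in knockdown libraries. The knockdown libraries were lower without overlap, at a ratio of 0.917 and an adjusted p in limma of 0.30. WIPI1 and WIPI2, which bind the lipid made by the BECN1 complex, stood far apart in level. WIPI2 had 42.3 and 44.03 FPKM in control and 41.0 and 40.6 FPKM in knockdown libraries, with a ratio of 0.945. WIPI1 had 3.35 and 3.13 FPKM in control and 2.97 and 2.54 FPKM in knockdown libraries, with a ratio of 0.851 and an adjusted p in limma of 0.37. In both genes the knockdown libraries were below the controls.

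**Figure D3:**
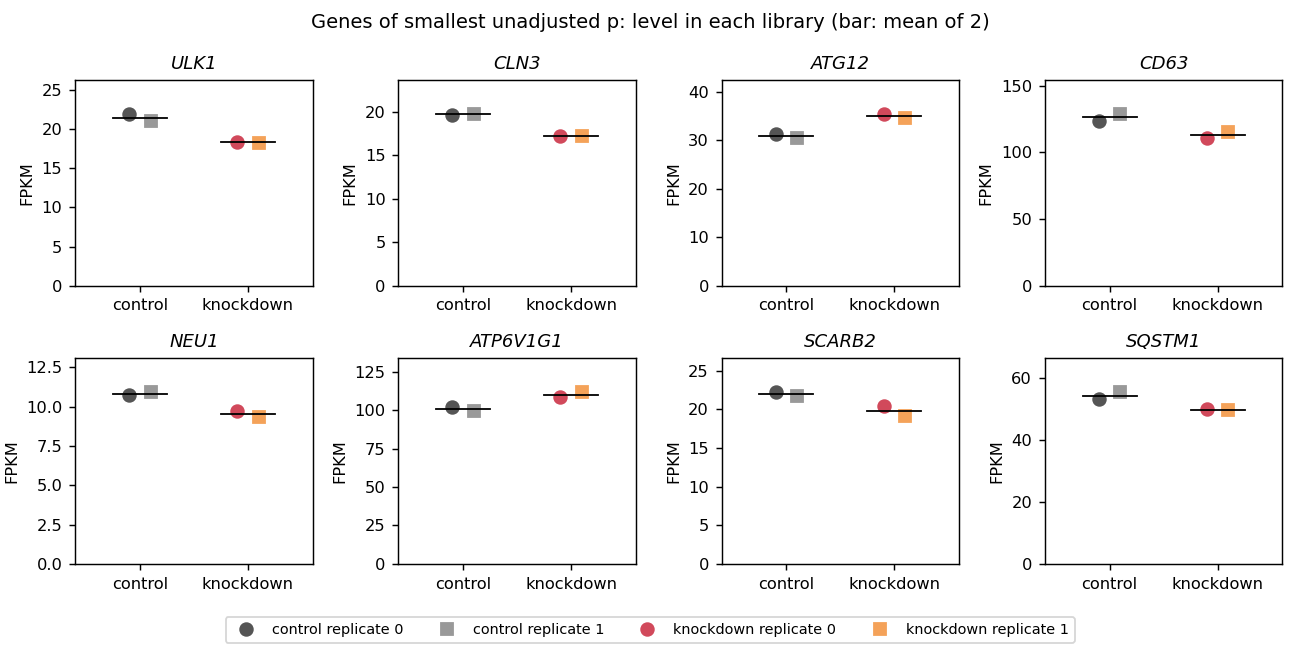
Level in each library (y axis, FPKM, from 0) of the 8 genes of smallest unadjusted p, with a bar at the mean of the 2 libraries of each group. In each of the 8 the groups do not overlap; ATG12 and ATP6V1G1 were higher and the other 6 lower in knockdown libraries.

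The 3 transcription factor genes had lower values in both knockdown libraries than in both controls, as did 27.7% of all tested genes, and none passed the test. TFEB was the most abundant, at 27.1 and 26.5 FPKM in control and 23.9 and 26.1 FPKM in knockdown libraries, with knockdown replicate 0 farther from the controls than knockdown replicate 1. Its ratio was 0.932 and its log2 change -0.10 ± 0.06 (SE), with a 95% interval of -0.25 to 0.05 and an adjusted p in limma of 0.46. TFE3 had 7.05 and 7.30 FPKM in control and 7.04 and 6.93 FPKM in knockdown libraries, a ratio of 0.973 and an adjusted p in limma of 0.82. MITF, best known from melanocytes and osteoclasts, had 1.46 and 1.62 FPKM in control and 1.42 and 1.36 FPKM in knockdown libraries, a ratio of 0.904 and an adjusted p in limma of 0.66. With the GC trend removed the log2 change was -0.01 for TFEB, -0.10 for MITF and 0.02 for TFE3, which turned sign. The order of level, TFEB over TFE3 over MITF, was the same in all 4 libraries without overlap. TFEC, the remaining family member, was under 0.7 FPKM in every library and was not tested. FPKM measures RNA only, and the movement of TFEB to the nucleus was not measured.

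Log2 changes were lower at higher GC content of the transcripts, taken as the mean over a gene's GENCODE 29 transcripts. Across the 49 tested genes the Spearman correlation of log2 change with GC content was -0.50, and across 12499 tested genes with a value it was -0.43; genes share libraries and are not independent replicates. ULK1 and CLN3, on the lower side, had 64.5% and 59.4% GC, and ATG12, on the higher side, had 40.2%. SCARB2 went against this order, lower at 43.9% GC. With the trend removed from each library, the median log2 change of the lysosomal group went from -0.08 to -0.02 and that of the TFEB family from -0.09 to -0.01. CD63, SCARB2 and CLN3 then had a limma p under 0.05 on the lower side and ATP6V1G1 on the higher side, 3 and 1 genes, against 7.18% and 6.18% of all genes. ULK1 went from a log2 change of -0.22 to -0.12 and ATG12 from 0.17 to 0.10, and the unadjusted limma p of ULK1, NEU1 and ATG12 became 0.079, 0.055 and 0.072. TCIRG1, at 65.2% GC, went from -0.29 to -0.18. Negative log2 changes then made up 9 of 17 lysosomal, 11 of 14 V-ATPase, 9 of 15 autophagy and 2 of 3 TFEB family genes, against 49.5% of all genes. In all, 9 of the 49 genes turned sign: GAA, SMPD1, MCOLN1, GRN and TFE3 to positive, and ATP6V1D, ATP6V1H, ATG5 and GABARAPL2 to negative. None of the 49 passed after adjustment, with a smallest limma adjusted p of 0.27.

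**Figure D4:**
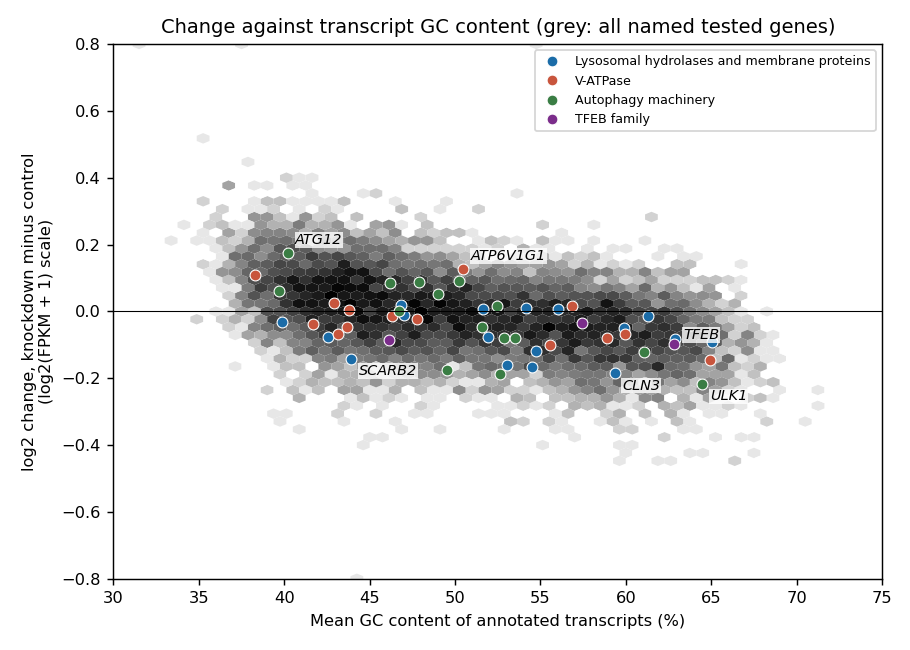
Log2 change (y axis, log2(FPKM + 1) scale) against mean transcript GC content in percent (x axis) for the 49 tested genes, coloured by group, over all 12499 named tested genes in grey; 28 genes beyond 0.8 are drawn at the edges. The genes of highest GC content, with ULK1 and TFEB among them, lie below 0, ATG12 at low GC lies above 0, and SCARB2 lies below 0 at low GC.

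Leaving out a library moved the log2 changes of these genes. Without control replicate 0 or 1, the median over the 49 was -0.051 or -0.039, against -0.015 or -0.0052 over all tested genes. Without knockdown replicate 0 or 1 it was -0.044 or -0.017, against -0.0047 or -0.014. Log2 changes turned sign in 6, 7, 7 and 8 of the 49, in that order. Each of these fits leaves 1 library in a group, so genes were not counted by unadjusted p.

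Wider lists of the same pathways gave a like result. Of 168 further genes, 154 were tested and 0 passed an adjusted p in limma of 0.05, with 12 lower (7.79%) and 7 higher (4.55%) at an unadjusted p under 0.05, against 9.35% and 7.25% of all tested genes, and a median log2 change of -0.04. With the GC trend removed, 11 were lower and 7 higher, against 7.18% and 6.18% of all genes. Among 36 tested further lysosomal hydrolases and cofactors, 27 had negative log2 changes (against 53.2% of all tested genes), and 5 were lower (13.9%) and 1 higher (2.78%) at an unadjusted limma p under 0.05. With the GC trend removed these counts became 3 lower and 2 higher of 36, against 7.18% and 6.18% of all genes. They became 3 and 3 of 15 in the further V-ATPase list, larger shares than over all genes in both directions. Among the mTORC1 regulators they became 3 and 0 of 24. The late endosome list had 0 and 0 of 17, further membrane and sorting genes 1 and 2 of 28, and further autophagy genes 1 and 0 of 34. IFI30, which reduces disulfide bonds of antigens in the lysosome, had 39.5 ± 0.846 and 28.3 ± 0.608 FPKM (SD, n = 2 each) and CTSB, cathepsin B, had 73.6 ± 0.713 and 63.5 ± 2.71 FPKM, with adjusted p in limma of 0.13 and 0.20. NPC2, the cholesterol carrier of the lysosome lumen and the most abundant of this list, had 109 ± 5.77 and 92.8 ± 5.81 FPKM, with an adjusted p in limma of 0.21. The higher gene was TPP2, at 41.9 ± 0.861 and 49.97 ± 0.669 FPKM, which encodes a cytosolic peptidase despite its place in this list. Named after their values were seen, IDUA and ARSA were the other lower genes. CTSL was listed at 0 in all 4 libraries.

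Further membrane and sorting genes were balanced, with 14 negative and 14 positive of 28 tested. CD68, a membrane glycoprotein used as a macrophage marker, had 2.97 ± 0.336 and 2.21 ± 0.305 FPKM, with an adjusted p in limma of 0.24, and CLCN7, the lysosomal chloride-proton exchanger, had a ratio of 0.915. LAPTM4B, a transmembrane protein, had 109 ± 8.01 and 125 ± 11.5 FPKM. LAPTM5, the haematopoietic member of that family, was the most abundant at 613 ± 28.5 and 623 ± 23.6 FPKM. Of 15 tested further V-ATPase genes, 1 was lower (6.67%) and 2 were higher (13.3%) at an unadjusted limma p under 0.05, against 9.35% and 7.25% of all tested genes. TCIRG1 was the lower gene. The higher genes were ATP6V1E2 and TMEM199, an assembly factor at a ratio of 1.18. RNASEK, a small V0 component and the most abundant of that list, had a ratio of 1.06.

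Of 34 tested further autophagy genes, 1 was lower (2.94%) and 0 higher at an unadjusted limma p under 0.05, against 9.35% and 7.25% of all tested genes. The lower gene was ATG16L2, a paralogue of ATG16L1, with 53.0 ± 2.47 and 45.9 ± 1.98 FPKM and an adjusted p in limma of 0.21. With the GC trend removed its unadjusted limma p became 0.070. The lower gene was then ATG2B, named after its values were seen, with an unadjusted limma p of 0.0097. ATG4D and ATG4C, proteases that process LC3 and GABARAP proteins, had ratios of 0.905 and 1.16, and CALCOCO2, the cargo receptor NDP52, was the most abundant with a ratio of 0.960. Among 24 tested regulators of TFEB through mTORC1, the Rag GTPases and folliculin, 3 were lower (12.5%) and 2 higher (8.33%) at an unadjusted limma p under 0.05. These shares were near the 9.35% and 7.25% of all tested genes. The lower genes were TSC2, LAMTOR4 and FLCN. TSC2, which restrains mTORC1 through RHEB, had 34.7 ± 0.167 and 28.4 ± 0.697 FPKM, a ratio of 0.819 and an adjusted p in limma of 0.19. Genes of the Ragulator complex that anchors the Rag GTPases went both ways, with LAMTOR3 at a ratio of 1.14 and LAMTOR4 at 0.897, and PPP3R1, the regulatory subunit of the phosphatase calcineurin, stood at 1.12. In the late endosome list of 17 tested genes, 2 were higher at that p (11.8%, against 7.25% of all tested genes). These were the retromer subunits VPS26A and VPS29 at ratios of 1.13 and 1.10, while RAB7A, the GTPase of late endosomes, stood at 0.984. All had a limma adjusted p over 0.05.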

How the data were processed

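Polyadenylated RNA of BLaER1 cells was sequenced in 2 control and 2 HAL7 knockdown libraries, made from 1 µg of total RNA with a TruSeq mRNA kit per the labels' protocols; counting by strand is not stated. The authors' deposited table was read as FPKM, since its ID column has Cuffdiff's name and its values are not whole. Bowtie2 2.2.5, TopHat2 2.0.14, Cuffdiff 2.2.1 and the build hg19 are named in the submitters' processing notes; no source used here gives options, annotation or scaling. IDs were matched to names and GENCODE 29 (96.6% of tested genes), whose GRCh38 coordinates are not in the authors' build. Depth was read from steps in FPKM times transcript length (80.7% to 89.9% of low values within 0.15 of a whole multiple); it limits precision for low genes.

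limma 3.58.1 in R 4.3.3 compared log2(FPKM + 1), for 12935 genes (HAL7 and those whose mean reached 1 FPKM), with a variance trend, two-sided tests and Benjamini-Hochberg adjustment over all genes at 0.05. The script was tested on simulated data. The GC trend was a loess curve against mean transcript GC content, removed from each library. Alternatives were other pseudocounts, filters and normalizations, no variance trend, a replicate block, GC trend removal and leaving out each library. The fold scale understates changes of low genes. Members and lists were chosen with earlier results of these data known. Values per library are given for up to 6 genes of smallest p and the 2 most abundant of each group, for the TFEB family, LC3 and GABARAP genes and, with some others, where they bear on a sentence; of each further list, the 3 of smallest p and the most abundant are named. The result of 1 gene of these lists is not reported here. Labels do not say that replicate numbers pair libraries.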

Additional observations from a re-analysis of the deposited data

How the results depend on the processing

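Over 15 other settings and at a threshold of 0.1, 0 of these genes passed after adjustment, and HAL7 stayed on the lower side without passing. The block on replicate number left 4 lower genes and 1 higher gene at an unadjusted p under 0.05, and with the GC trend removed as well, 2 and 0. Same-numbered libraries correlated at 0.12 in their deviations, and with only 2 pairs the numbers were not taken to pair libraries. With the GC trend alone removed the counts were 3 and 1, and without the variance trend 4 and 1. Leaving out a library gave 1 to 10 lower and 1 to 2 higher genes. With the GC trend removed, with or without the replicate block, the median log2 change was -0.021 for the lysosomal group and -0.012 for the TFEB family; the latter was -0.033 with a pseudocount of 5. With a library left out, medians were -0.088 to -0.017 for the lysosomal group, -0.042 to -0.0076 for the V-ATPase, -0.038 to 0.034 for autophagy and -0.084 to -0.041 for the TFEB family. Some log2 changes turned sign. With the GC trend removed, with or without the block, 9 of the 49 did; among them GABARAPL2 was at -0.011, GRN at 0.0049 and TFE3 at 0.017, and with quantile normalization ATP6V0A2 was at 0.00082. Leaving out a library turned 6 to 8 of the 49, and log2 changes that turned sign ran from -0.067 to 0.042 for ATP6V0A2, -0.16 to 0.0029 for ATP6V0B, -0.018 to 0.23 for ATP6V1C1, -0.034 to 0.037 for GABARAPL2, -0.024 to 0.071 for LAPTM5, -0.19 to 0.034 for MAP1LC3B, -0.080 to 0.031 for RAB7A and -0.13 to 0.016 for ULK2. The cause was not tested for any of these. A lone library was taken to vary as much as the remaining groups do. Low fragment counts limit the precision for HAL7, ATP6V0A1 and SMPD1.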
